A study of Mus musculus with 6 samples.

Results

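The 4 genes of the TSC22 domain family (Tsc22d1, Tsc22d2, Tsc22d3 and Tsc22d4), the glucocorticoid receptor gene Nr3c1, and 4 genes known to be induced by that receptor or by FOXO factors (Fkbp5, Per1, Ddit4 and Pik3ip1) were followed in mouse macrophage-like cells treated with 25-HC. All 9 were found by symbol among the 56636 genes of the deposited table. The set was chosen by the TPM of Tsc22d3, which were higher in the treated libraries, so the 25-HC against vehicle differences of these genes are given as a description, with no test. The cells were RAW264.7, a mouse line from a virus-induced tumour that is widely used as a macrophage model, of genotype WT in all libraries. They grew in RPMI 1640 medium with 10% fetal bovine serum and antibiotics and received 25-HC for 24 h (3 libraries) or vehicle for 24 h (3 libraries). Neither a dose nor a full name of 25-HC was used here, and the labels do not state whether libraries of a group are separate cultures, so the spread between them may be technical.

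TSC22 proteins carry a conserved TSC box followed by a leucine zipper and pair with each other and with other proteins. Tsc22d3 encodes GILZ, the glucocorticoid-induced leucine zipper, which in macrophages is known for restraining NF-kB and AP-1 and for mediating part of the anti-inflammatory action of glucocorticoids. Its gene is also a known target of FOXO factors, transcription factors that AKT keeps out of the nucleus when PI3K signalling is active. The glucocorticoid receptor waits in the cytoplasm bound to HSP90 and co-chaperones, enters the nucleus on binding hormone, and switches on genes such as Fkbp5 and Per1.

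Values are TPM, a level scaled for transcript length and for the library total, so levels of different genes can be set side by side. Depth is unknown from such a table, since every library sums to about 1000000. The vehicle libraries differed from each other more than the treated ones did. Treated libraries had 11971 to 12005 genes at 1 TPM or more, while vehicle 1, 2 and 3 had 11238, 9492 and 11994. Long transcripts were low in vehicle 1 and most of all in vehicle 2, whose median ratio to vehicle 3 was 0.86 in the shortest sixth of the tested genes and 0.174 in the longest sixth. Vehicle 3 showed no such trend, the median ratio of the 25-HC mean to it being 0.936 to 0.974 in the 6 length groups. Macrophage markers summed to 2170 to 2190 TPM in 25-HC and 1380 to 2050 TPM in vehicle, with 6 of 8 at 1 TPM or more in every library. No marker of fibroblasts, epithelial cells, neutrophils or lymphocytes reached 1 TPM in every library. Their sums stayed at or below 0.76, 0.2, 2.5 and 0.32 TPM in 25-HC and 0.11, 0.27, 2.57 and 0.22 TPM in vehicle, and Pdgfra, Cd3g and Ncr1 were listed at 0 in all libraries.

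Of the 3 genes that stood apart between groups on the deposited values and in each rescaled or corrected version (Tsc22d2, Tsc22d3 and Ddit4), Tsc22d3 and Ddit4 had promoter entries. Their start regions are shown in 3 windows, beside that of Fkbp5, a standard readout of the glucocorticoid receptor whose groups overlapped. Each window runs from 250 bases before to 50 bases after an annotated start site. They are RefSeq sequences of build GRCm38.p6, an older build than the GRCm39 named in the submitters' processing notes, and are printed 5′ to 3′ on the gene's strand. Of the 9 genes, 6 had an entry, with several windows for some. Capitals mark the matches of 7 motifs searched on both strands, which do not overlap each other within these windows.
Tsc22d3, first window, chrX:140542619-140542918, minus strand: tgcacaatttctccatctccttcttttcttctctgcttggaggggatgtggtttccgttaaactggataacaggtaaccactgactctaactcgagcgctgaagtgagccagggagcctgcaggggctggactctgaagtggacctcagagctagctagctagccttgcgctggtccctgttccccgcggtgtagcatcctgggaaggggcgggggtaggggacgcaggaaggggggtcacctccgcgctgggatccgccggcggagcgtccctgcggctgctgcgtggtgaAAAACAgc
Tsc22d3, second window, chrX:140600473-140600772, minus strand: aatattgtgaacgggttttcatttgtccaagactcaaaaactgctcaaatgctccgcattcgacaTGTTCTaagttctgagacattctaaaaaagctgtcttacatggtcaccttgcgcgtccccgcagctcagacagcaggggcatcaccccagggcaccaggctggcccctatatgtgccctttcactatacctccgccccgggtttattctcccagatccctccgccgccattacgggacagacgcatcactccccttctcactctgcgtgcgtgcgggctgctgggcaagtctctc
Ddit4, chr10:59951721-59952020, minus strand: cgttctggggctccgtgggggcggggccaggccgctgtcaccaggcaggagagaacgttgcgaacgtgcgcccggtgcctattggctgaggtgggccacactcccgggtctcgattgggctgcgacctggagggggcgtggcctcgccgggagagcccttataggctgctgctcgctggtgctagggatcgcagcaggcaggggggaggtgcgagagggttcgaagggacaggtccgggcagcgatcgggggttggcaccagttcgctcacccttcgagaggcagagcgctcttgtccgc
Fkbp5, chr17:28486100-28486399, minus strand: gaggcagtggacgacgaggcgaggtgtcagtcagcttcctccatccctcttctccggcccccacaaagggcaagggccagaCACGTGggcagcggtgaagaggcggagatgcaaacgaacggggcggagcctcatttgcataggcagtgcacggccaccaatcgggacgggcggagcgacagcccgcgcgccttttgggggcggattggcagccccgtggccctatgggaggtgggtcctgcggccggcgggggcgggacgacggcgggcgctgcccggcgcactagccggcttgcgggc

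The second Tsc22d3 window holds 1 copy of AGAACA, one arm of a glucocorticoid receptor site, read on the opposite strand and beginning 185 bases before the start site. Among 32851 promoter windows of the same length, 19% hold these letters, as does the fourth window of Tsc22d1. The first Tsc22d3 window holds AAAACA, a short core of FOXO sites, from base 43 after the start, a match found in 22.1% of all windows. Pik3ip1 has the same 6 letters from base 21 after its start. Fkbp5 and the first window of Per1 each hold the E-box CACGTG (7.15% of all windows), the site that clock factors bind, as does the second window of Tsc22d1. The Ddit4 window, the third Tsc22d3 window and the second Per1 window hold none of the motifs. No window of these genes holds the full glucocorticoid response element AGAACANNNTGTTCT (0.00913% of all windows), the longer FOXO site GTAAACA (3.65%), the ATF4 composite site TGATGNAA (3.97%) or the cyclic AMP element TGACGTCA (1.79%). Such matches describe letters in these short windows and say nothing of binding.

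Tsc22d3 had the clearest separation of the 9 genes. It stood at 9.99, 10.2 and 10.4 TPM in 25-HC 1, 2 and 3, against 2.26, 0.69 and 2.98 TPM in vehicle 1, 2 and 3. The lowest treated library was 3.35-fold above the highest vehicle library, and the treated libraries were almost level with each other, with a coefficient of variation of 1.87% against 59.2% in vehicle. The mean was 10.2 ± 0.19 TPM in 25-HC and 1.98 ± 1.17 TPM in vehicle (SD, n = 3 each), a 5.15-fold ratio of means. The log2 difference of TPM + 1 was 2.0 (SE 0.39), and 242 of the 12092 tested genes had a larger one. Against vehicle 3 alone, the vehicle library without the trend in transcript length, the fold was 3.42, and 109 genes had a larger difference. The deposited values are sums over all isoforms of the gene, so the short GILZ form and the longer forms cannot be told apart. In bulk RNA, more cells with the transcript and more transcript per cell cannot be told apart either.

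**Figure D1:**
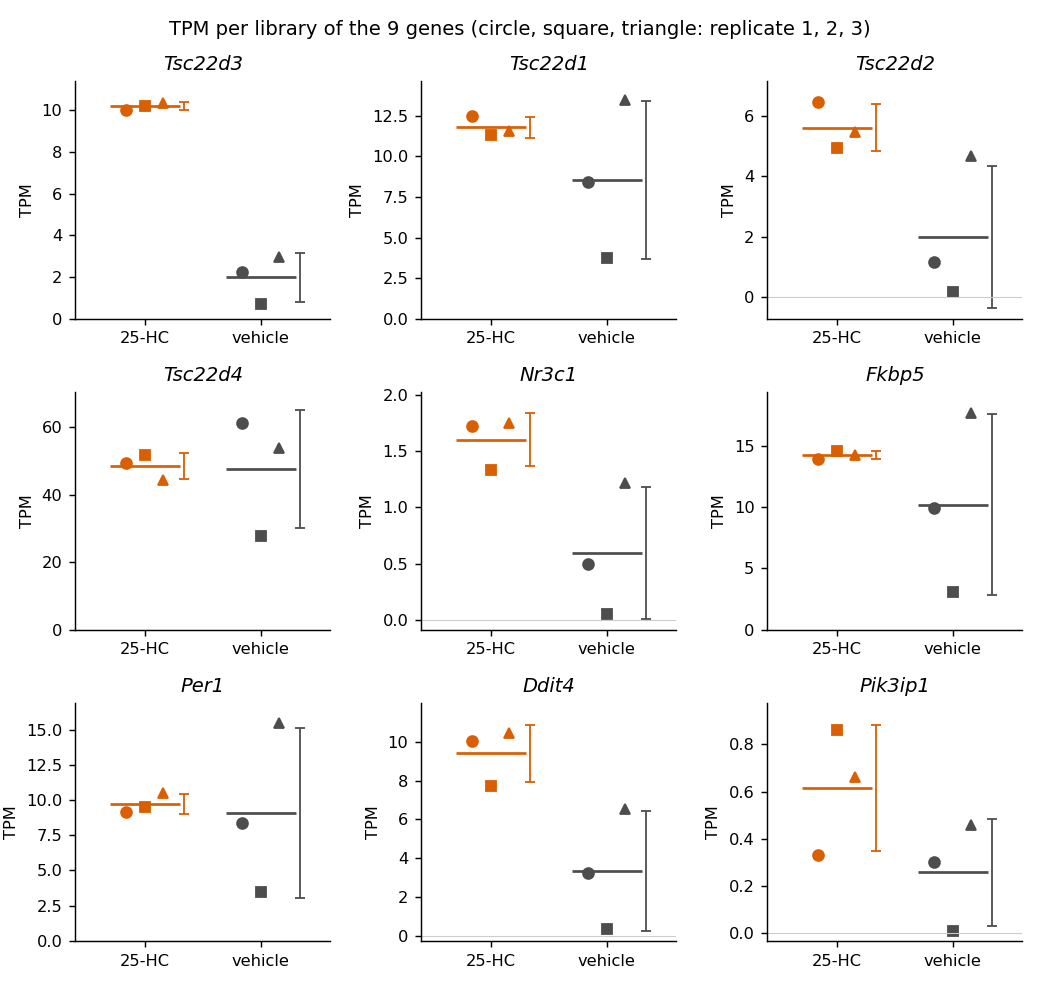
Level in TPM (vertical axis, linear) of each of the 9 genes in every library, with 25-HC in orange and vehicle in grey; the horizontal line is the mean, the bar beside it the SD over 3 libraries, and the marker shape the replicate number. Tsc22d3 shows 3 level points near 10 TPM in 25-HC with all vehicle points below 3 TPM, while Fkbp5, Per1, Tsc22d1 and Tsc22d4 in 25-HC lie inside the range of the vehicle libraries.

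The other TSC22 genes did not share this separation in size. Tsc22d4, which acts in metabolic control in liver and binds the pseudokinase NRBP1, was the most abundant of the set, at 49.3, 51.8 and 44.4 TPM in 25-HC and 61.1, 27.9 and 53.9 TPM in vehicle. The treated values lay inside the vehicle range, with a log2 difference of 0.10 (SE 0.34). Tsc22d1, the founding member, first described as a transcript stimulated by TGF-beta, was at 12.5, 11.3 and 11.5 TPM in 25-HC and 8.44, 3.72 and 13.5 TPM in vehicle. Here too vehicle 3 was above every treated library, so the groups overlapped, and the log2 difference was 0.57 (SE 0.45). Tsc22d2, a less studied relative with a long transcript, was at 6.47, 4.92 and 5.45 TPM in 25-HC and 1.16, 0.16 and 4.66 TPM in vehicle. Its groups were apart by a narrow margin, since the lowest treated library was 1.06-fold above vehicle 3, and its log2 difference of 1.44 (SE 0.59) was 0.22 against vehicle 3 alone. The vehicle libraries differed 29.1-fold from highest to lowest for Tsc22d2, but 4.32-fold for Tsc22d3 and 2.19-fold for Tsc22d4.

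The makeup of the family within each library does not depend on how libraries are scaled to each other, although the trend with transcript length is still in it. The 4 genes together summed to 78.3, 78.2 and 71.8 TPM in 25-HC and 73.0, 32.4 and 75.0 TPM in vehicle, which overlapped. Tsc22d3 made up 12.8%, 13.0% and 14.5% of that sum in 25-HC, against 3.1%, 2.13% and 3.97% in vehicle. The lowest treated share was 3.21-fold above the highest vehicle share. Tsc22d4 held 63.7 ± 2.25% of the family in 25-HC and 80.5 ± 7.56% in vehicle (SD, n = 3 each), lower in every treated library. The share of Tsc22d1 overlapped between groups, at 15.5 ± 0.909% in 25-HC and 13.7 ± 3.71% in vehicle (SD, n = 3 each), and that of Tsc22d2 was apart by a factor of 1.01 only.

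**Figure D2:**
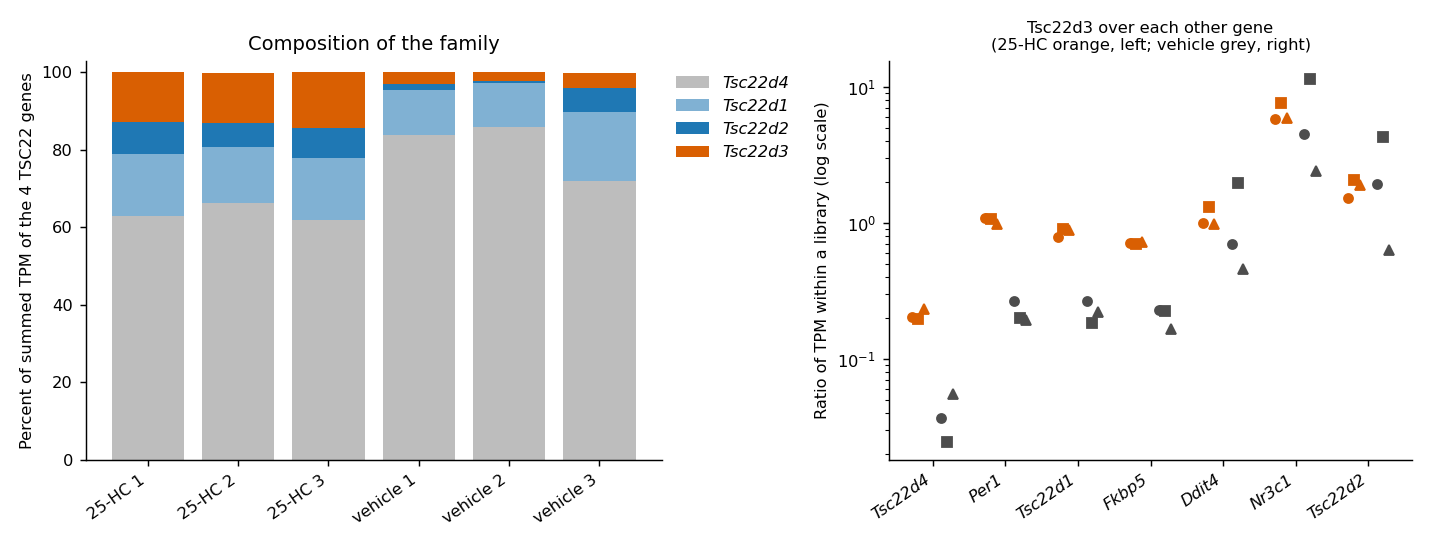
Left, share of the summed TPM of the 4 TSC22 genes held by each gene (percent, stacked bars) in each library; right, ratio of Tsc22d3 to each of 7 other genes of the set within each library (log scale), with 25-HC in orange, vehicle in grey and marker shapes for replicates 1, 2 and 3. The Tsc22d3 share is 12.8% to 14.5% in the 25-HC libraries and 2.13% to 3.97% in the vehicle libraries, and the ratios to Tsc22d4, Per1, Tsc22d1 and Fkbp5 are apart between groups, while those to Ddit4, Nr3c1 and Tsc22d2 overlap.

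Nr3c1, the receptor itself, was low in all libraries, at 1.72, 1.33 and 1.75 TPM in 25-HC and 0.5, 0.06 and 1.22 TPM in vehicle. The lowest treated library was 1.09-fold above vehicle 3, and the log2 difference was 0.77 (SE 0.33). With a mean of 0.593 ± 0.586 TPM in vehicle (SD, n = 3), Nr3c1 passed the filter of 1 TPM on the mean of all libraries through its treated values of 1.6 ± 0.234 TPM (SD, n = 3).

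The 2 standard targets of the receptor in the set, Fkbp5 and Per1, overlapped between groups. Fkbp5, a co-chaperone that lowers the receptor's affinity for hormone and is itself induced by it, was at 14.0, 14.6 and 14.3 TPM in 25-HC and 9.89, 3.04 and 17.7 TPM in vehicle. Its treated libraries were close together and lay below vehicle 3, with a log2 difference of 0.70 (SE 0.57) against all vehicle libraries and -0.29 against vehicle 3 alone. Per1, a repressor of the circadian clock with a known glucocorticoid response element, was at 9.16, 9.5 and 10.5 TPM in 25-HC and 8.36, 3.45 and 15.4 TPM in vehicle. Its mean was 9.71 ± 0.685 TPM in 25-HC and 9.08 ± 6.03 TPM in vehicle (SD, n = 3 each), and its treated mean was 0.629-fold that of vehicle 3. Within libraries, Tsc22d3 over Fkbp5 was 0.716, 0.698 and 0.728 in 25-HC, against 0.229, 0.227 and 0.168 in vehicle. The vehicle ratios stayed in this band although Fkbp5 itself differed 5.83-fold among those libraries. Tsc22d3 over Per1 was 1.09, 1.07 and 0.99 in 25-HC and 0.27, 0.2 and 0.193 in vehicle, a lowest treated ratio 3.66-fold above the highest vehicle ratio. Relative to the members that were themselves higher in 25-HC, Tsc22d3 was not apart. Tsc22d3 over Ddit4 was 0.996, 1.32 and 0.99 in 25-HC and 0.7, 1.97 and 0.457 in vehicle. Its ratio to Nr3c1 averaged 6.47 ± 1.04 in 25-HC and 6.15 ± 4.74 in vehicle, and that to Tsc22d2 averaged 1.84 ± 0.269 in 25-HC and 2.3 ± 1.86 in vehicle (SD, n = 3 each), with vehicle 2 the highest and vehicle 3 the lowest library in both.

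Ddit4 and Pik3ip1 both act against growth signalling. Ddit4 encodes REDD1, an inhibitor of mTORC1 that works through the TSC1 and TSC2 complex and is induced by glucocorticoids, hypoxia and ATF4. It was at 10.03, 7.74 and 10.5 TPM in 25-HC and 3.23, 0.35 and 6.52 TPM in vehicle. The groups were apart, the lowest treated library being 1.19-fold above vehicle 3, with a log2 difference of 1.56 (SE 0.64) and 650 tested genes above it. Against vehicle 3 alone the log2 difference of Ddit4 was 0.46, and the fold of mean TPM 1.44. Pik3ip1, which restrains the catalytic subunit of PI3K, was at 0.33, 0.86 and 0.66 TPM in 25-HC and 0.3, 0.01 and 0.46 TPM in vehicle. It was the 1 gene of the 9 that missed the filter on low values, and its groups overlapped.

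In order of level, 25-HC libraries held Tsc22d4, Fkbp5, Tsc22d1, Tsc22d3, Per1, Ddit4, Tsc22d2, Nr3c1 and Pik3ip1, from 48.5 to 0.617 TPM on average. Tsc22d3, Per1 and Ddit4 overlapped in that order, and the other neighbours did not. The vehicle means ran from 47.6 to 0.257 TPM in the order Tsc22d4, Fkbp5, Per1, Tsc22d1, Ddit4, Tsc22d2, Tsc22d3, Nr3c1 and Pik3ip1. There, all neighbours except Tsc22d4 and Fkbp5 overlapped. Library by library, Tsc22d3 held place 5, 4 and 6 of the 9 in 25-HC 1, 2 and 3, and place 6, 5 and 7 in vehicle 1, 2 and 3, so its place in the order overlapped between groups.

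Across the 12092 tested genes, limma called 1 gene higher in 25-HC (0.00827% of those tested) and none lower (0.0%), with 1352 genes at an unadjusted p under 0.05. The called gene was Snord16a, a small nucleolar RNA, and none of the 9. Tsc22d3 was among the genes called higher after correction for transcript length (16 genes), after correction for length and GC content (12 genes) and, with Tsc22d2, without vehicle 3 (671 genes), which adds no test of a gene that chose the set. Of the 8 tested members, 4 (Tsc22d2, Tsc22d3, Nr3c1 and Ddit4) were higher in every 25-HC library than in every vehicle library, against 22.6% of all tested genes, and none was lower in every one, against 8.1%. The contrast chose the set, so nothing is read from these counts. The median log2 difference was 0.736 over the 8 genes and 0.519 over all tested genes.

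The settings differ in how far they shift all genes. After median-ratio rescaling, which divides each library by 1 factor (0.409 for vehicle 2), the median of all genes was 0.0085, and the same 4 genes were apart upward (18.7% of all genes) while Per1 was apart downward (17.9%). Rescaled Per1 stood at 7.25, 7.64 and 8.34 in 25-HC and 8.59, 8.44 and 11.7 in vehicle. Rescaled Tsc22d3 stood at 7.91, 8.2 and 8.25 in 25-HC and 2.32, 1.69 and 2.26 in vehicle, so the vehicle libraries drew together and the 3.88-fold ratio of means remained. Tsc22d1 was even after rescaling, with a log2 difference of 0.012. Tsc22d4 turned to -0.53 with overlapping groups. After correction for transcript length and GC content, 3 genes were apart upward (16.4% of all genes), with log2 differences of 1.37 for Tsc22d3, 1.33 for Ddit4 and 0.61 for Tsc22d2. Per1 was apart downward there (18.4% of all genes), and Nr3c1 was at -0.058 with overlap. After correction for length alone the same 3 genes were apart upward, while Per1 (-0.44) and Tsc22d1 (-0.17) were apart downward. Of all 11132 genes in that setting, 1907 were apart upward and 2083 downward. The log2 difference of Tsc22d3 was 1.14 to 2.52 over 17 other settings, positive in every one, and that of Ddit4 was 0.46 to 2.13. Fkbp5 ran from -0.29 to 1.2 and Per1 from -0.62 to 0.73.

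**Figure D3:**
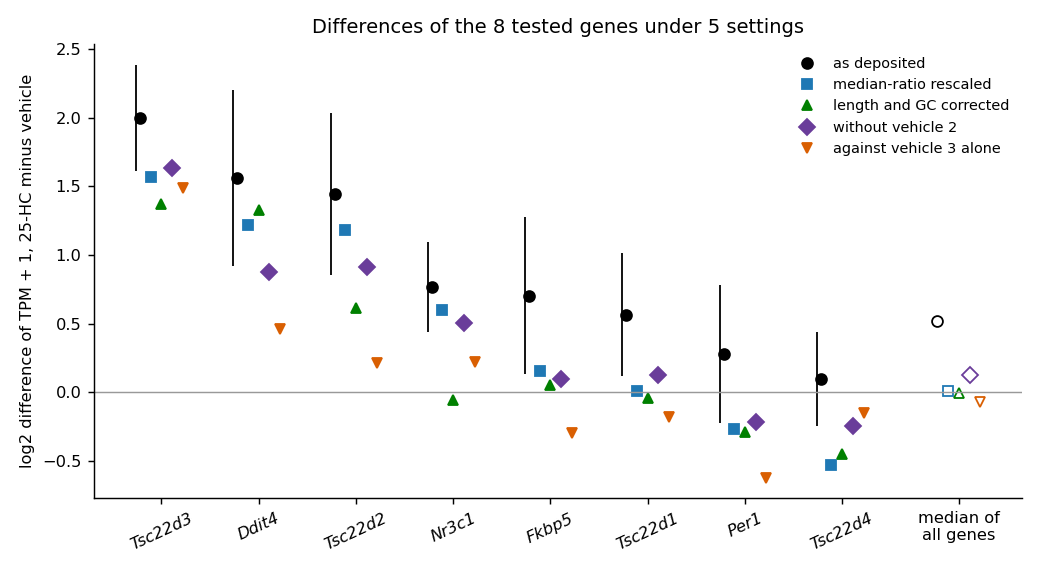
Log2 difference of TPM + 1, 25-HC minus vehicle (vertical axis), of the 8 tested genes under 5 settings, with the SE of the deposited-value fit as a bar and open markers for the median of all tested genes. Tsc22d3 stays above 1 in all 5, whereas Ddit4, Tsc22d2 and Nr3c1 come down to 0.46, 0.22 and 0.22 against vehicle 3 alone.

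How strongly a gene was reduced in vehicle 2 differed within the set. The level in vehicle 2 over that in vehicle 3 was 0.232 for Tsc22d3 (longest annotated transcript 2876 bases), against a median of 0.301 for tested genes of similar length. It was 0.276 for Tsc22d1, 0.223 for Per1 and 0.172 for Fkbp5, near the medians of 0.2 and 0.235 for genes of their lengths. Tsc22d4, at 0.517 against 0.2, was the 1 gene well above its length group. Tsc22d2 (0.034), Nr3c1 (0.049) and Ddit4 (0.054) were well under their length groups, at 0.174, 0.174 and 0.423. Pik3ip1, under 1 TPM in every library, was lower still, at 0.022 against 0.301, and its groups overlapped. Tsc22d2, Nr3c1 and Ddit4 were the genes whose lowest treated library was 1.06-fold to 1.19-fold above vehicle 3. The part of library quality in their differences was not tested.

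**Figure D4:**
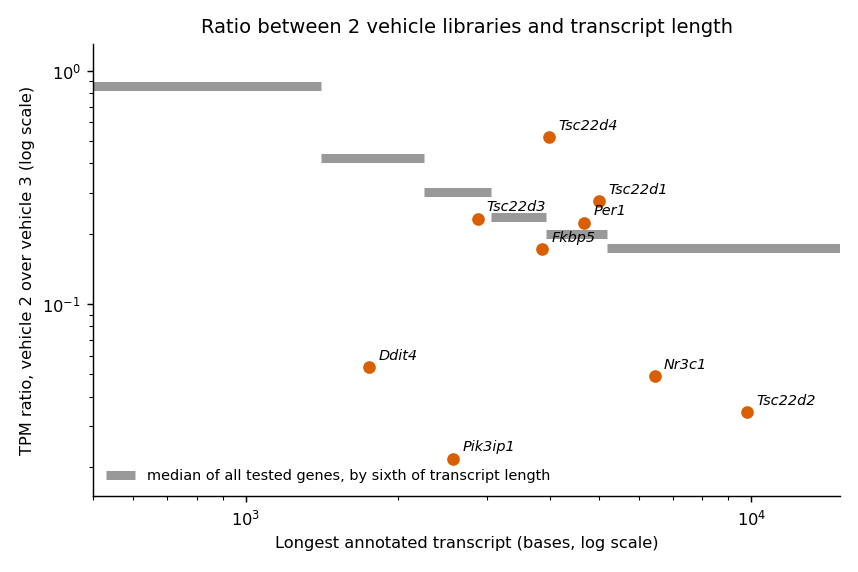
Ratio of TPM in vehicle 2 to vehicle 3 (vertical axis, log scale) against the longest annotated transcript (horizontal axis, bases, log scale) for the 9 genes (orange), with the median of all tested genes in each sixth of transcript length (grey bars; the outer bars are clipped at the axis ends). Tsc22d3, Fkbp5, Per1 and Tsc22d1 lie near the grey bars, Tsc22d4 lies above them, and Tsc22d2, Nr3c1, Ddit4 and Pik3ip1 lie well below them.

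Other genes of the same pathways were taken from lists of receptor targets, receptor partners, FOXO factors and targets, TSC22 partners and the mTOR, PI3K and clock pathways. No gene of the 7 lists passed limma over all genes in either direction. Of 20 other glucocorticoid-responsive genes 15 were tested, 8 of them apart upward (22.6% of all tested genes) and none downward (8.1%). After median-ratio rescaling 4 were apart upward (18.7% of all genes) and 1 downward (17.9%). On the deposited values their median log2 difference was 0.898 (0.519 over all). Against vehicle 3 alone that median was 0.126 (-0.071 over all), with 8 genes positive and 7 negative. Cebpd, a C/EBP transcription factor, was at 37.5, 36.4 and 32.4 TPM in 25-HC and 16.5, 3.83 and 16.4 TPM in vehicle. Nfkbia, which encodes the NF-kB inhibitor I-kappa-B alpha, was at 214, 205 and 213 TPM in 25-HC and 134, 9.34 and 239 TPM in vehicle, so its groups overlapped. All 15 tested genes of the list, Dusp1 and Zfp36 among them, had a positive log2 difference on the deposited values. Other well-known targets, chosen after their values were seen, went both ways only against vehicle 3 alone, a single library. Dusp1 and Zfp36 overlapped as well and had the lowest log2 differences of the list against vehicle 3 alone, at -1.04 and -0.73. Sgk1, Klf9 and Mt2 were apart upward, with 0.72, 0.20 and 0.86 against vehicle 3 alone, although Mt2 overlapped after median-ratio rescaling. Sgk1 averaged 0.847 TPM in vehicle and passed the filter through its treated mean of 3.41 TPM.

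Of 14 receptor partners 10 were tested, 3 of them apart upward, a share close to the 22.6% of all tested genes. Their median log2 difference was 0.733 (0.519 over all genes), and -0.118 against vehicle 3 alone (-0.071 over all genes). After median-ratio rescaling 3 of the 10 were apart upward (18.7% of all genes) and 1 downward (17.9%). Ncoa1, among those apart, averaged 0.747 TPM in vehicle and passed the filter through its treated mean of 2.14 TPM. Hsp90aa1, an inducible form of HSP90, was at 24.1, 23.1 and 23.1 TPM in 25-HC and 8.93, 6.39 and 13.6 TPM in vehicle. Ncor1, a corepressor of nuclear receptors, was at 17.4, 15.5 and 20.0 TPM in 25-HC and 5.23, 0.97 and 10.5 TPM in vehicle. Both genes were apart between groups. Of 8 TSC22 partners 3 were tested, 1 of them apart upward (22.6% of all tested genes) and none downward (8.1%). Wnk1, a kinase of cell volume control, was apart upward at 33.0, 28.5 and 29.8 TPM in 25-HC and 10.2, 1.99 and 21.9 TPM in vehicle. The pseudokinase gene Nrbp1 overlapped, at 28.1, 25.9 and 29.2 TPM in 25-HC and 20.9, 8.71 and 29.6 TPM in vehicle. Oxsr1, the remaining tested partner, overlapped as well. Wnk4 did not pass the filter and was lower in every treated library, averaging 0.15 TPM in 25-HC and 0.913 TPM in vehicle. The other untested partners overlapped.

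Of 24 FOXO factors and targets 17 were tested, 6 of them apart upward (22.6% of all tested genes) and none downward (8.1%). Their median log2 difference was 1.02, and -0.027 against vehicle 3 alone, beside 0.519 and -0.071 over all genes. After median-ratio rescaling 5 were apart upward (18.7% of all genes) and 2 downward (17.9%). Foxo3 and Foxo4 passed the filter and overlapped, and Foxo1 and Foxo6 did not pass it. Gadd45a, a growth arrest gene, was at 13.0, 12.0 and 12.1 TPM in 25-HC and 2.91, 0.37 and 3.76 TPM in vehicle. Txnip, which binds thioredoxin and limits glucose uptake, was at 287, 272 and 291 TPM in 25-HC and 78.7, 10.8 and 184 TPM in vehicle. Klf2, chosen after its values were seen, stood apart much like Tsc22d3, at 19.2, 20.4 and 18.8 TPM in 25-HC and 4.86, 1.82 and 4.69 TPM in vehicle. With Gadd45a it was 1 of the 2 FOXO list genes whose log2 difference against vehicle 3 alone (1.85 and 1.49) was near or above that of Tsc22d3 (1.49).

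Of 12 genes of the TSC and mTOR pathway 9 were tested, 4 of them apart upward (22.6% of all tested genes). The median log2 difference was 0.726, and 0.0965 against vehicle 3 alone, where all genes had 0.519 and -0.071. Tsc2 (-0.50) and Mtor (-0.33) were the 2 negative genes, both with overlapping groups. After median-ratio rescaling 2 of the 9 were apart upward (18.7% of all genes) and none downward (17.9%). Sesn2, a leucine sensor upstream of mTORC1, was at 20.2, 19.3 and 19.6 TPM in 25-HC and 5.52, 2.19 and 10.7 TPM in vehicle. Rheb, the GTPase that the TSC complex switches off, was at 76.6, 74.6 and 74.8 TPM in 25-HC and 44.9, 6.7 and 62.6 TPM in vehicle. Among 13 tested PI3K and AKT genes of 14 listed, 3 were apart upward on the deposited values, again close to the 22.6% of all genes. Their median was 0.834 (-0.097 against vehicle 3 alone). After median-ratio rescaling 5 of the 13 were apart upward (18.7% of all genes) and none downward (17.9%). Pik3r1, among those apart, averaged 0.687 TPM in vehicle and passed the filter through its treated mean of 1.94 TPM. Pik3cg, a catalytic subunit of leukocytes, was at 8.62, 8.36 and 8.94 TPM in 25-HC and 1.46, 0.17 and 4.37 TPM in vehicle. Pdpk1, the kinase that activates AKT, overlapped at 8.83, 7.95 and 9.13 TPM in 25-HC and 1.78, 0.16 and 9.65 TPM in vehicle.

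Of 18 clock genes with a row, 10 were tested, 7 of them apart upward (22.6% of all tested genes), with a median of 1.02 against 0.519 over all genes. Against vehicle 3 alone the clock median was 0.232 and that of all genes -0.071. After median-ratio rescaling 6 clock genes were apart upward (18.7% of all genes) and 1 downward (17.9%). Arntl, which encodes the clock activator BMAL1, was at 17.8, 17.2 and 15.9 TPM in 25-HC and 4.98, 0.3 and 10.8 TPM in vehicle. Nfil3, a repressor of clock output genes, was at 13.0, 15.7 and 15.8 TPM in 25-HC and 8.45, 2.32 and 9.94 TPM in vehicle. Per2 and Per3, the relatives of Per1, did not pass the filter. Per1 stood below vehicle 3 in the treated libraries while Arntl and Nfil3 stood above all vehicle libraries. Cry2, Nr1d2, Dbp, Bhlhe40 and Ciart were apart upward as well. Nr1d1 was the 1 negative gene of the list, at -0.29, and -0.92 against vehicle 3 alone. It overlapped on the deposited values and was apart downward after median-ratio rescaling.

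**Figure D5:**
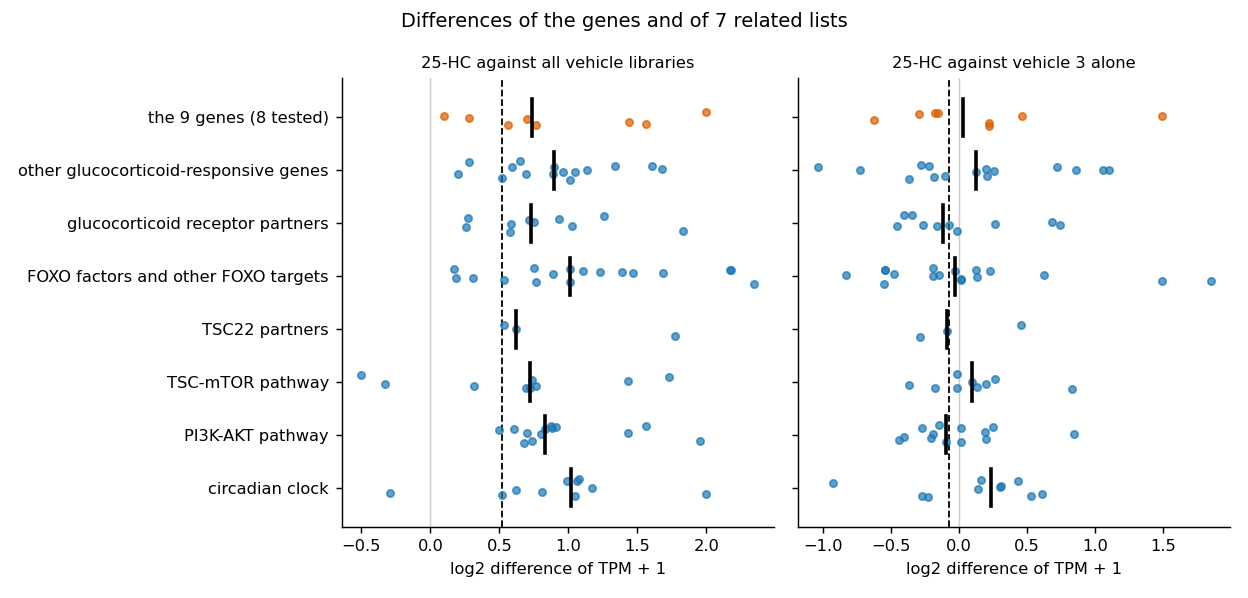
Log2 difference of TPM + 1 (horizontal axis), 25-HC minus all vehicle libraries (left) and minus vehicle 3 alone (right), for each tested gene of the set (orange) and of 7 related lists (blue); the upright bar is a list's median and the dashed line the median of all tested genes. Medians of 0.62 to 1.02 in the left panel become -0.12 to 0.23 in the right one, with Tsc22d3 the rightmost gene of its set in both.

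By the likeness of their pattern over the 6 libraries (Pearson r of log2(TPM + 1), among 8436 genes averaging 5 TPM or more), the genes nearest to Tsc22d3 were Fcgr4, Pi16, Phf11d, Asns and Rtp4, with r of 0.9994, 0.9993, 0.9988, 0.9981 and 0.9980. A high r was frequent in these libraries, with 770 genes (9.13%) at 0.9 or more and a median of 0.742 over all. All libraries of a group share their treatment, and low values in vehicle 2 are shared by many genes. Fcgr4, an activating Fc receptor, was at 38.9, 39.6 and 39.9 TPM in 25-HC and 26.9, 22.5 and 28.9 TPM in vehicle. Rtp4, an interferon-inducible gene, was at 12.6, 15.5 and 14.03 TPM in 25-HC and 2.3, 0.35 and 2.82 TPM in vehicle, the largest ratio of means of the 5 at 7.71-fold. Asns, the asparagine synthetase, was 2.09-fold higher, Phf11d 3.24-fold and Pi16 2.06-fold. After median-ratio rescaling the groups of Fcgr4, Pi16 and Asns overlapped, with log2 differences of -0.035, 0.38 and 0.46. Phf11d and Rtp4 stayed apart upward there, at 0.97 and 2.17.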

How the data were processed

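Bulk RNA of RAW264.7 was sequenced in 6 libraries, 3 per group, from TruSeq RNA libraries per the labels' protocols. The submitters' processing notes name HISAT2, StringTie, RSEM and build GRCm39, with no version, role or order; neither annotation release nor strandedness is recorded there, so antisense reads cannot be told apart. The authors deposited TPM per gene and library, normalized for transcript length and library total, so depth and counting error are unknown. A further 11 columns are empty.

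Genes without a symbol (2623) kept their identifier, and of identifiers sharing a symbol the one with the highest mean kept it. The 12092 genes averaging 1 TPM or more over the 6 libraries were fitted as log2(TPM + 1). The fit used limma 3.58.1 under R 4.3.3 (variance trend, two-sided, Benjamini-Hochberg, threshold 0.05, no block). A check of the code on simulated data came first. That check is not taken as a measure of recovery in these libraries, where vehicle libraries differed from each other more than treated ones. The pseudocount of 1 understates changes of low genes. Other settings were pseudocounts of 0.1 and 5, other filters, median-ratio and quantile scaling, no trend, a replicate block, leaving out each library, vehicle 3 alone, and loess correction (span 0.75, degree 2) for transcript length, or, added after seeing the data, length and GC content. Lengths are of the longest transcript in GENCODE M21, matched for 11132 genes (92.1%). The 9 genes, the lists and the settings were chosen with earlier results of these data known. Named genes are the 9, per list the called genes or else the 2 of at least 5 TPM with the largest difference, and the 5 nearest to Tsc22d3 in pattern. Python 3.11.15, pandas 2.3.3 and matplotlib 3.10.9 made tables and figures. A lymphocyte marker is not reported here and was left out of its list.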

Additional observations from a re-analysis of the deposited data

How the results depend on the processing

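On the deposited values limma called 1 gene higher and 0 lower in 25-HC, and 0 genes of the 7 related lists. The count of higher genes was 0 with a pseudocount of 5, with no filter, with a mean of at least 5 TPM and with the replicate block, 4 after quantile normalization, 16 after length correction and 12 after length and GC correction. The count of lower genes was 1 after median-ratio rescaling, 1 after quantile normalization, 3 after length correction and 1 after length and GC correction. Leaving out 1 library gave 0 to 671 higher and 0 to 51 lower genes: 671 and 51 without vehicle 3, 9 and 4 without vehicle 2, 1 and 0 without vehicle 1, and 0 and 0 without any single 25-HC library. Of the related lists, 1 gene (Klf2, adjusted p = 0.0256 and 0.0209 by limma) passed after either correction, and 0 to 11 passed when 1 library was left out: 11 without vehicle 3, 1 (Klf2) without vehicle 2. The lists hold 111 genes, not all of them tested, and the 11 stand beside 671 higher genes among all 12092 tested. Of the 11, Sgk1, Ncoa1 and Pik3r1 averaged under 1 TPM in vehicle and passed the filter through their treated values. The cause of these shifts in count was not tested. The fit with the replicate block called 0 genes. Deviations of same-numbered libraries from their group means correlated at -0.013, 0.056 and 0.03, and only replicate 2 was nearest to its own number. The trend with transcript length in vehicle 1 and 2 is part of these deviations, so the check cannot decide whether cultures were paired. Of 17 other settings, Tsc22d1 was negative in 4, Tsc22d4 in 6, Per1 in 6 and Fkbp5 in 1, and Nr3c1 in 2 of 16. Tsc22d3, Tsc22d2 and Ddit4 were positive in every setting tried. Depth is unknown, so counting error, largest for Nr3c1 and Pik3ip1 near or under 1 TPM, could not be given.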
